A study of Arabidopsis thaliana with 48 samples.

Results

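The cytosolic small heat shock proteins followed here are encoded by 8 Arabidopsis thaliana genes, chosen by locus identifier out of the 32833 genes in the deposited table. HSP17.4 (AT3G46230), HSP18.2 (AT5G59720), AT1G59860, AT2G29500, AT1G53540 and AT1G07400 belong to class I, and HSP17.6II (AT5G12020) and HSP17.6A (AT5G12030) belong to class II. All 8 were present in the table and passed the filter on low genes, which kept those averaging 10 or more normalised counts. The last 4 class I genes are named by locus only, since the reference annotation gives them no symbol.

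RNA was sequenced from wild-type Col-0 seedlings on agar plates in 16 groups, each with 3 biological replicates, 48 libraries in all. Salt (50 mM NaCl) and PQ (0.05 µM paraquat, a herbicide that makes superoxide in chloroplasts) were in the medium from sowing. HL (a photon flux of 700 µmol per m2 and s, against 50 in the other groups) and HS (33°C, against 21°C in the other groups) were applied for 1.5 h just before the seedlings were frozen. The 15 treatments were each stress alone, the 3 pairs with heat (PQ + HS, HL + HS and Salt + HS), the 3 pairs without it (PQ + HL, Salt + HL and Salt + PQ), every set of 3, and all 4 stresses together (Salt + PQ + HL + HS). The Control received none of them.

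Small heat shock proteins are chaperones that bind other proteins as these unfold and keep them soluble until they can be refolded, without using ATP. They share an alpha-crystallin domain and assemble into large oligomers, and in the plant cytosol class I and class II proteins form separate oligomers. Their genes are almost silent in unstressed leaves and are switched on by heat shock transcription factors. In Arabidopsis the HSFA1 factors start this response and HSFA2 sustains it, by binding inverted repeats of the unit GAA known as heat shock elements. HSP101, a disaggregase, works with small heat shock proteins to recover proteins from aggregates.

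Matches to the heat shock element before the coding sequences are shown first. Whether heat shock factors act on these genes through these matches was not tested. In the RefSeq genome of TAIR10.1, the 250 bases before the annotated gene start held a pair of inverted units (GAANNTTC or TTCNNGAA, which are their own reverse complements, so that both strands are covered) in 3 of the 8 members and in 16.1% of 27443 genes. A run of 3 units (GAANNTTCNNGAA or its reverse complement TTCNNGAANNTTC, each of which contains 2 overlapping pairs) was found before 2 members and before 0.386% of genes. These are the 2 windows with such a run, in which capitals mark the runs of 3 units.
HSP17.4, chr3:16984868-16985117, minus strand: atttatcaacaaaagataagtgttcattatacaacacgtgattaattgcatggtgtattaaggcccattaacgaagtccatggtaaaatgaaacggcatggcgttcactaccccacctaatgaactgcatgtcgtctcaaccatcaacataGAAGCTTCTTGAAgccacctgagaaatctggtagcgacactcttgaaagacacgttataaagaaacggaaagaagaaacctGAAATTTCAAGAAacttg
AT1G53540, chr1:19980049-19980298, plus strand: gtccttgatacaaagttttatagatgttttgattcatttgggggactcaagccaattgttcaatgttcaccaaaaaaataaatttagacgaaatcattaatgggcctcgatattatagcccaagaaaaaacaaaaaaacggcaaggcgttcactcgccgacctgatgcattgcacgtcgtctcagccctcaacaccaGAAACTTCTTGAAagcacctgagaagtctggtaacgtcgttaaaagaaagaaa

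The annotated starts lay 131 to 380 bases before the start codon, so a window of 300 bases before the start codon was also searched, a choice made after the first window had been seen. In it, each of the 8 members held at least 1 pair, against 22.8% of 27443 genes, and 3 members held a run of 3 units, against 0.747% of genes. The longest element or elements of each member in this window are as follows, in capitals throughout.
HSP17.4, chr3:16984954-16984966, minus strand: GAAGCTTCTTGAA
HSP17.4, chr3:16984873-16984885, minus strand: GAAATTTCAAGAA
AT1G53540, chr1:19980246-19980258, plus strand: GAAACTTCTTGAA
HSP18.2, chr5:24062396-24062408, plus strand: GAAACTTCCTGAA
AT1G59860, chr1:22031350-22031357, plus strand: TTCTAGAA
AT1G07400, chr1:2274994-2275001, plus strand: TTCTAGAA
AT2G29500, chr2:12633931-12633938, minus strand: GAATTTTC
AT2G29500, chr2:12633849-12633856, minus strand: GAAATTTC
HSP17.6II, chr5:3883046-3883053, minus strand: TTCTCGAA
HSP17.6A, chr5:3884853-3884860, minus strand: TTCTCGAA
The runs of 3 units began 233 and 152 bases before the start codon in HSP17.4, 264 bases before it in AT1G53540 and 236 bases before it in HSP18.2. Both class II genes carried the same pair, beginning 177 bases before the start codon in HSP17.6II and 176 in HSP17.6A, and AT1G59860 and AT1G07400 shared another. The elements listed for HSP18.2, AT1G59860, AT1G07400, AT2G29500 and HSP17.6II lie after the annotated gene start, within the annotated transcript. Those listed for HSP17.4, AT1G53540 and HSP17.6A lie before it. These matches describe letters in a window and are not evidence of binding.

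Coding sequences were compared as well. AT1G59860 and AT1G07400 were identical at 88.1% of aligned coding positions, the largest value among the class I genes, and HSP17.4 and AT1G53540 at 85%. HSP18.2 was 77% identical to HSP17.4 and 77.8% to AT1G53540, and AT2G29500 was 79.2% identical to AT1G59860 and 80.2% to AT1G07400. HSP17.6II and HSP17.6A were 86.1% identical and lie 845 bases apart on the same strand of chromosome 5, while identity between the classes was 51.1 to 55.3%. Every member has 1 exon and 1 annotated transcript, and every 50-base word of each transcript occurred nowhere else in the genome, so reads of at least that length can be placed. The read length is not given in the sources used here. HSP17.4 overlaps 2 genes on the other strand (AT3G46220 and AT3G07365), and since the strand setting of the counting is not given, reads of HSP17.4 cannot be told apart from theirs.

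The libraries held 67888254 to 87569857 reads on genes, and in the Control the 8 members together took only 1139, 1094 and 1166 of them. Libraries of 3 groups stood apart from the other treatments. PQ + HL + HS, Salt + PQ + HL and the group with all 4 stresses had all members near the Control level, although each stress they name was, when given alone, accompanied by far higher levels. The paper also described the response to these 3 combinations as different. It proposes pathways not yet studied or, alternatively, suppressed activity or cell death. For that alternative it found no direct evidence in survival, growth or chlorophyll. Neither was tested here. HS alone was the lowest of the other 12 treatments. The numbers in the sample titles run with this split. The 4 groups with the highest levels carry 30 to 32 and 34 to 42, the 3 groups near the Control carry 11, 22, 33 and 43 to 48, the Control carries 1 to 3, and the other 8 groups carry the rest up to 29. What these numbers stand for is not given in the sources used here, and their part in the results was not tested. All results on these groups rest on the labels as deposited.

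Markers fixed for the tissue were read alongside. All 4 shoot genes, all 5 root genes and all 11 seed genes had reads in every group. Summed shoot markers ran between 1614708 and 3299215 normalised counts in the treated libraries, against 2520471 to 2679178 in the Control. They lay wholly below the Control in the 8 groups of the middle tier described next, in PQ + HS and in Salt + PQ + HL, and wholly above it in HL + HS and Salt + HL + HS. Summed root markers ran between 25662 and 78673 normalised counts in the treated libraries, against 20459 to 22278 in the Control, so they were higher in each treated library. Summed seed markers, which matter because late embryos hold small heat shock transcripts, ran between 604 and 5072 in the treated libraries, against 1442 to 1627 in the Control. They were highest in HL + HS (2677 to 5072) and PQ + HS (3602 to 4293), and lay wholly below the Control in Salt + PQ + HL (861 to 963) and with all 4 stresses (859 to 1067). The part of these markers in the members' levels was not tested. In whole seedlings, fewer cells with a transcript and less of it per cell cannot be told apart.

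The members fell into 3 tiers of level that were the same groups for all 8 genes. PQ + HS, HL + HS and these with Salt added were at the top. The single stresses, Salt + HS and the 3 pairs without heat were in the middle, and the 3 remaining treatments lay beside the Control. The lowest library of the top 4 groups exceeded the highest library of the middle 8 in every member, by 1.98-fold in AT2G29500, the smallest gap, and by 13.4-fold in AT1G59860, the largest. The lowest library of the middle 8 exceeded every library of the bottom tier by 7.46-fold in HSP18.2 and by 42.7- to 224-fold in the other 7 genes.

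**Figure D1:**
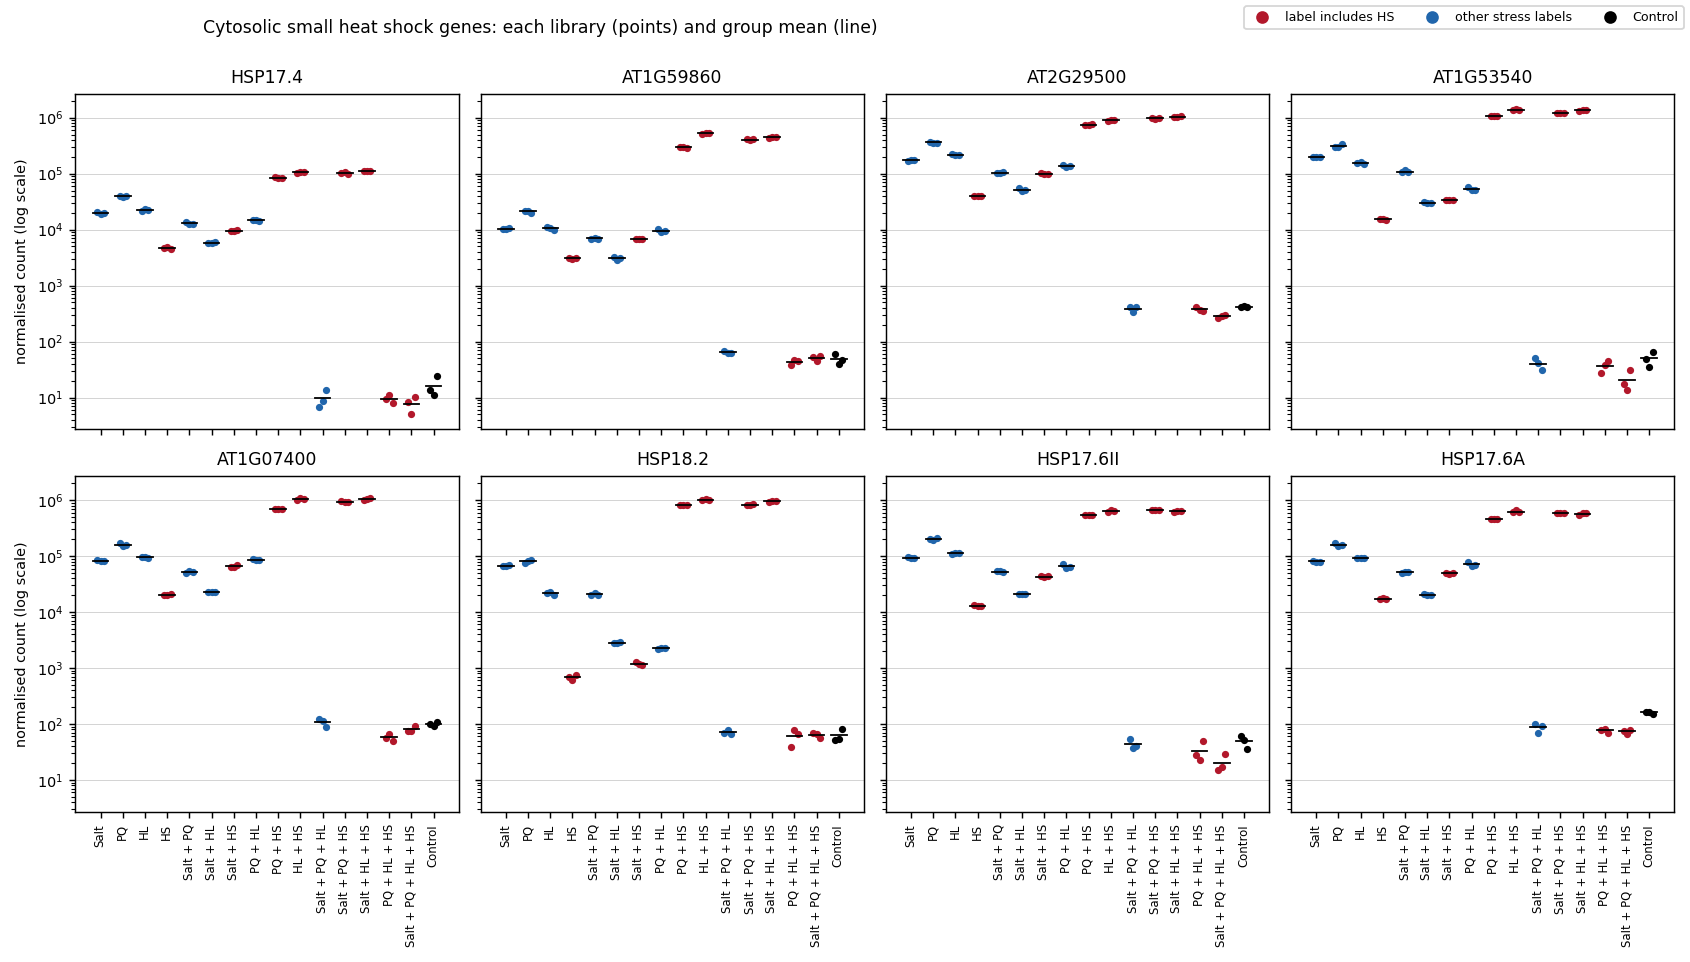
Normalised counts of the 8 members on a log axis, with a point for each of the 3 libraries of a group and a line at the group mean; red groups include HS in their label, blue groups are the other stresses and black is the Control. The 3 tiers are visible in every panel, and HSP18.2 reaches lowest in the middle tier, at 613 normalised counts in a library of HS.

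AT1G53540 (chr1:19980299-19981199), a class I gene, reached the highest level per kilobase of transcript of any member in the top tier. It had 1373884, 1428597 and 1363962 normalised counts in HL + HS and 1319347, 1371341 and 1367069 in Salt + HL + HS. It had 1197722, 1213410.1 and 1216444 in Salt + PQ + HS and 1078594, 1084774 and 1080735 in PQ + HS. The first 2 of these groups overlapped and the others were separate. In the middle tier it had 301464, 304129.7 and 332308 normalised counts in PQ, 200941, 199125 and 199381 in Salt and 154405, 158449 and 150464 in HL, in each case far above 15464, 15623 and 14828 in HS. The pairs lay between these, at 105366, 114614 and 106141 in Salt + PQ, 56653, 51767 and 51839 in PQ + HL, 34529.6, 34251 and 34208 in Salt + HS and 30752, 29814 and 29989.8 in Salt + HL. Each of the middle groups was separate from the next in order. In the bottom tier the counts were 27.0, 38.9 and 44.4 normalised counts in PQ + HL + HS, 49.9, 40.7 and 31.2 under Salt + PQ + HL and 17.3, 13.6 and 31.2 with all 4 stresses, against 48.7, 34.8 and 66.2 in the Control. Only the group with all 4 stresses lay wholly below the Control.

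HSP18.2 (chr5:24062323-24063300), a class I gene long used as a heat-inducible reporter, spread the middle tier much wider than its relatives. It had 76281, 82039 and 84591 normalised counts in PQ and 65239, 67436 and 68221 in Salt. It had 21897, 22656 and 19954 in HL and 20577, 21789 and 20424 in Salt + PQ, and these 2 groups overlapped. Its level was much lower in the other 4 groups, with 2788, 2819 and 2869.8 in Salt + HL, 2209, 2235 and 2302 in PQ + HL, 1272, 1205 and 1135 in Salt + HS and 699, 613 and 760.4 in HS. The top tier nevertheless reached the level of its relatives, with 991965, 1034487 and 1007260.4 in HL + HS, 932495, 980011 and 974528 in Salt + HL + HS, 823164, 814726 and 858783 in Salt + PQ + HS and 807904, 804710.1 and 820342 in PQ + HS. Near the Control it had 38.9, 77.9 and 66.6 normalised counts in PQ + HL + HS, 69.1, 78.7 and 66.9 under Salt + PQ + HL and 68.3, 67.3 and 56.9 with all 4 stresses, against 51.1, 55.1 and 82.1 in the Control. These 4 groups overlapped throughout.

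HSP17.4 (chr3:16984118-16984867), a class I gene, was the member with the lowest top-tier level. It had 109995, 109646 and 112899 normalised counts in Salt + HL + HS and 86441, 84139 and 83979.7 in PQ + HS, with HL + HS and Salt + PQ + HS between them. In the middle tier it had 39807, 38407 and 39289 in PQ, 21717, 22975 and 22257 in HL and 20932, 19391 and 20059 in Salt, and its lowest level was 4641, 4944 and 4546 in HS. No neighbouring groups of that tier overlapped. In the bottom tier it had 9.53, 11.3 and 7.92 normalised counts in PQ + HL + HS, 6.66, 8.84 and 13.4 under Salt + PQ + HL and 8.23, 5.11 and 10.1 with all 4 stresses, against 13.6, 11.3 and 23.9 in the Control. These are few reads per library, and counting error alone is then a large part of each value.

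The other class I genes followed the same tiers. AT1G59860 (chr1:22031343-22032250) was the lowest member per kilobase in Salt, PQ, HL and Salt + PQ. It had 3081, 3049.7 and 3105 normalised counts in HS, against 59.9, 40.5 and 46.2 in the Control. It made the largest step of the 8 between HL and HL + HS, with 514948, 538002 and 527234 in HL + HS, against 11141, 10739.9 and 9857 in HL. AT2G29500 (chr2:12633065-12634120) was the most abundant member per kilobase in the bottom tier, with 411, 436 and 413 in the Control. It had 40480.3, 39589 and 39460.5 in HS and 742102 to 1050593 in the libraries of the top tier. AT1G07400 (chr1:2274926-2275783) had 20413, 19806 and 20828 in HS, against 101, 91.6 and 108 in the Control, and 704693 to 1079857 in the top tier.

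The class II genes behaved alike over the tiers. HSP17.6II (chr5:3882231-3883111) had 13299.8, 12874 and 12767 normalised counts in HS, against 59.9, 51.9 and 35.9 in the Control, and 538339 to 677630 in the top tier. HSP17.6A (chr5:3883957-3884838) had 17334, 17613 and 16807 in HS, against 165, 165 and 154 in the Control, and 460793 to 655200 in the top tier. HSP17.6II was highest in Salt + PQ + HS, while HL + HS ranked first for HSP17.6A.

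Summed over the members, the family held a measurable share of all reads on genes. It was 5.46% ± 0.13 in Salt + HL + HS, 5.40% ± 0.080 in HL + HS, 5.24% ± 0.019 in Salt + PQ + HS and 4.76% ± 0.011 in PQ + HS (SD, n = 3 each). In the single stresses it was 1.73% ± 0.018 in PQ, 1.00% ± 0.014 in Salt, 0.996% ± 0.010 in HL and 0.169% ± 0.0018 in HS. The remaining pairs had 0.637% in PQ + HL, 0.563% in Salt + PQ, 0.453% in Salt + HS and 0.242% in Salt + HL. The share was 0.00111% in PQ + HL + HS, 0.00130% under Salt + PQ + HL and 0.000929% with all 4 stresses, against 0.00143% in the Control. In normalised counts the sum was 6864-fold higher in HL + HS than in the Control and 126-fold higher in HS. When each library was scaled to the same total instead, these became 3770-fold and 118-fold.

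The order of the groups was close to the same in every member. PQ ranked 5th and PQ + HS 4th of the 16 groups in all 8, and HS ranked 12th in all 8. HL + HS, Salt + HL + HS and Salt + PQ + HS shared the first 3 places in varying order, and HL + HS was first for 5 members, Salt + HL + HS for HSP17.4 and AT2G29500, and Salt + PQ + HS for HSP17.6II. Of the 15 neighbouring pairs in each order, 2 to 5 had libraries that overlapped. In the upper 12 groups such overlaps were few. They were HL + HS with Salt + PQ + HS (HSP17.4 and HSP17.6II), HL + HS with Salt + HL + HS (AT1G53540, AT1G07400 and HSP17.6II), Salt + PQ + HS with PQ + HS (HSP18.2), HL with Salt, Salt with PQ + HL and Salt + HL with HS (AT1G59860), PQ + HL with Salt (AT1G07400) and HL with Salt + PQ (HSP18.2).

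Each treatment was then set against the Control with limma on log2(normalised count + 1) in a single fit of all groups, and a gene was called at a Benjamini-Hochberg adjusted p under 0.05 over the 21536 genes tested. All 15 comparisons share the same 3 Control libraries. Each gene also has a single estimate of its spread, shared by all 16 groups. An SE or p-value from this fit therefore does not measure the spread of the groups compared alone. Fits of only the groups compared are given as an alternative where they changed a call. Log2 fold changes on this scale understate the change of genes with few counts. All 8 members rose in 12 treatments, and in each of these comparisons every treated library lay above every Control library.

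These calls stand against a large background of change. Genes called higher made up 40.5% of all genes tested in Salt, 40.2% in PQ, 38.5% in HL, 37.2% in HS, 35.9% in PQ + HL, 35.6% in Salt + HS, 35.8% in Salt + HL and 40.2% in Salt + PQ. They made up 42.9% in Salt + HL + HS, 42.7% in HL + HS, 42.2% with PQ and Salt added to HS (Salt + PQ + HS) and 42.1% in PQ + HS. When each library was scaled to the same total instead, genes called higher made up 14.4 to 18.8% in these last 4 treatments and 25.3 to 32.4% in the other 8, and the median log2 fold change of all genes tested fell to between -0.87 and -0.66 in the 4, with all 8 members still called higher in all 12. As reported, the median log2 fold change of all genes tested lay between -0.015 and 0.011 in all 15 comparisons, and the values of the members in these 12 lay between 3.46 and 14.78.

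In HS the log2 fold changes were 8.16 ± 0.16 for HSP17.4, 8.28 ± 0.16 for AT1G53540 and 8.04 ± 0.16 for HSP17.6II (± SE, n = 3 each). They were 7.65 ± 0.07 for AT1G07400, 6.73 ± 0.07 for HSP17.6A, 6.57 ± 0.05 for AT2G29500 and 5.97 ± 0.08 for AT1G59860. HSP18.2 had the smallest, 3.46 ± 0.13 (limma, adjusted p = 6.96e-27). Among single stresses the rises were largest in PQ for all 8, with 12.63 for AT1G53540 and 12.02 for HSP17.6II. In HL + HS they ran between 11.06 for AT2G29500 and 14.78 for AT1G53540, and HSP18.2 stood at 13.98.

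**Figure D2:**
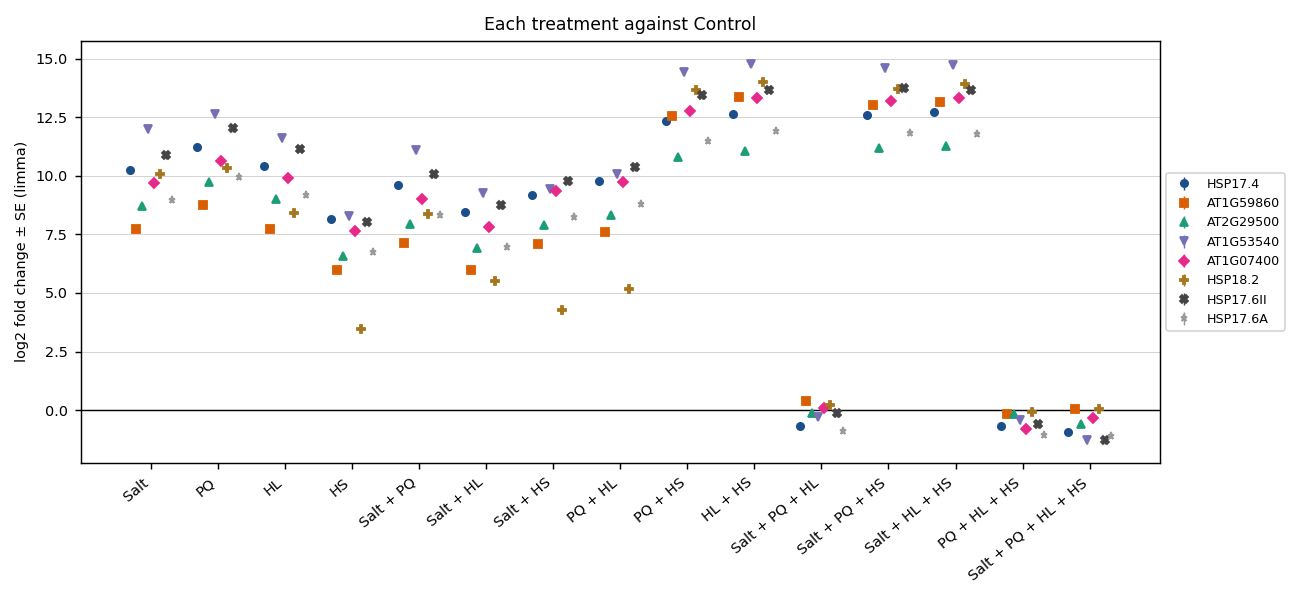
Log2 fold change of each member against the Control (y axis, ± SE from limma, mostly smaller than the symbol) for the 15 treatments (x axis), with a symbol and colour for each member. In 12 treatments the values lie between 3.46 and 14.78, and PQ + HL + HS, Salt + PQ + HL and the group with all 4 stresses have values between -1.27 and 0.40.

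In the 3 treatments near the Control, changes were small. Called members were all lower in PQ + HL + HS and with all 4 stresses, while in Salt + PQ + HL 2 were lower and 1 was higher. Summed seed markers were also below the Control in Salt + PQ + HL and with all 4 stresses, as given beside the markers, and their part was not tested. HSP17.6A, a class II gene, fell in each of these 3 treatments. It had 78.6, 83.1 and 70.5 normalised counts in PQ + HL + HS, 101, 69.8 and 91.5 under Salt + PQ + HL and 76.5, 66.4 and 79.5 with all 4 stresses, against 165, 165 and 154 in the Control. No treated library reached the Control, and the log2 fold changes were -1.05 ± 0.07, -0.89 ± 0.07 and -1.11 ± 0.07 in that order (± SE). HSP17.4 was also called lower in all 3, with log2 fold changes of -0.65, -0.68 and -0.95 in the same order. Its libraries overlapped with the Control in Salt + PQ + HL. Its call in PQ + HL + HS was lost by edgeR (adjusted p = 0.0544), by DESeq2 (adjusted p = 0.0561), with only these groups in the fit, and without Control replicate 3, where the value was -0.36. Its call in Salt + PQ + HL was lost with only these groups in the fit and without replicate 1 of every treatment, where the value was -0.47.

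In Salt + PQ + HL, 3 members were called, 2 lower and 1 higher, where 40.5% of all genes tested were called in either direction. Of all genes tested, 20.9% were called lower and 19.6% higher. The member called higher was AT1G59860, with 68.2, 61.9 and 62.5 normalised counts in Salt + PQ + HL, against 59.9, 40.5 and 46.2 in the Control, a log2 fold change of 0.40 ± 0.08 (SE, adjusted p = 3.04e-05). With only these 2 groups in the fit, the calls of AT1G59860 (limma, adjusted p = 0.0825) and HSP17.4 (limma, adjusted p = 0.133) were lost and 1 member was called in place of 3. The other 5 had log2 fold changes of -0.27 to 0.21 that did not pass the test. AT2G29500 gained a call without replicate 1 (-0.18) or 3 (-0.15) of every treatment, and AT1G07400 without replicate 3 (0.22). AT1G53540 gained one without Control replicate 2 (-0.50), and HSP18.2 without Control replicate 3 (0.42).

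In PQ + HL + HS, 5 members were called lower and 0 higher, where 19.7% of all genes tested were called in either direction and 10.1% were called lower. AT1G07400 had 56.4, 67.5 and 49.9 normalised counts in PQ + HL + HS, against 101, 91.6 and 108 in the Control, a log2 fold change of -0.79 ± 0.07 (SE, adjusted p = 2.12e-11), and its groups did not overlap. The others called were HSP17.6A, HSP17.4, HSP17.6II at -0.60 and AT2G29500 at -0.14, and the libraries of HSP17.6II and AT2G29500 overlapped with the Control. edgeR on the recovered reads called only HSP17.6A and AT1G07400, as did a fit of these groups alone. DESeq2 lost HSP17.4 (adjusted p = 0.0561) and AT2G29500 (adjusted p = 0.0893) and newly called AT1G53540 at -0.45 (adjusted p = 0.0395). AT2G29500 also lost its call with no filter, when scaled to the same total, and without Control replicate 2. Leaving out replicate 2 or 3 of every treatment lost it too.

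With all 4 stresses, 6 members were called lower and 0 higher, where 46.9% of all genes tested were called in either direction. AT1G53540 fell by 1.27 on the log2 scale and HSP17.6II by 1.27, and no library of either reached the Control. AT2G29500 had 263, 284 and 295 normalised counts in Salt + PQ + HL + HS, against 411, 436 and 413 in the Control, a log2 fold change of -0.58 ± 0.05 (SE, adjusted p = 1.32e-13). AT1G07400 was called at -0.33, and AT1G59860 and HSP18.2 had values of 0.07 and 0.06 that did not pass the test. AT1G07400 lost its call with only these groups in the fit (adjusted p = 0.0649), and AT1G59860 gained one without Control replicate 1, at 0.23 (limma, adjusted p = 0.00607).

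Heat was then followed as an addition to each background of the factorial design. Its effect on the members changed direction with the background. Added to Salt, HS was accompanied by lower levels of all 8 members, where 32.2% of all genes tested were called lower. HSP18.2 had 1272, 1205 and 1135 normalised counts in Salt + HS, against 65239, 67436 and 68221 in Salt, a log2 fold change of -5.80 ± 0.13 (SE, limma adjusted p = 9.69e-35). The other 7 had changes between -2.54 for AT1G53540 and -0.33 for AT1G07400, which had 63913, 65032 and 68772 in Salt + HS, against 84386, 82275 and 81367 in Salt. In all 8 the libraries of Salt + HS lay below those of Salt.

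Added to PQ, HL, Salt + HL or Salt + PQ, HS was accompanied by higher levels of all 8 members, and no libraries overlapped. Genes called higher were 38% of all genes tested on PQ, 40.4% on HL, 39.9% on Salt + PQ and 42.2% on Salt + HL, and 12.2 to 17.0% on these 4 when scaled to the same total. AT2G29500 had 882181, 896828 and 914587 normalised counts in HL + HS, against 222384, 217406 and 218980.4 in HL, a log2 fold change of 2.03 ± 0.05 (SE). AT1G59860 changed by 5.64 ± 0.08 in the same comparison. Over the 8 members the changes ran between 1.06 and 3.80 on PQ, 2.03 and 5.64 on HL, 2.99 and 5.87 on Salt + PQ, and 4.24 and 8.41 on Salt + HL. AT1G59860 and HSP18.2 had the 2 largest values on each of these 4 backgrounds, and HSP17.4 or AT2G29500 the smallest.

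Added to PQ + HL, HS was accompanied by a fall of all 8 to near the Control level, where 35.8% of all genes tested were called lower. HSP17.6II had 27.8, 22.5 and 49.1 normalised counts in PQ + HL + HS, against 71294, 61638 and 63111 in PQ + HL, a log2 fold change of -10.98 ± 0.16 (SE), the largest of the family. HSP18.2 had the smallest, -5.24 ± 0.13. Added to Salt + PQ + HL, where levels were already near the Control, HS left 6 members called lower and 0 higher, where 14.5% of all genes tested were called lower. The changes were -1.13 for HSP17.6II, close to -1 for AT1G53540 and between -0.47 and -0.22 for the other 4 called. The calls of AT1G59860 and HSP17.6A were lost by edgeR, by DESeq2 and with only these groups in the fit (adjusted p = 0.0805 to 0.306), and also without replicate 2 of every treatment for AT1G59860 and without replicate 1 or 3 for HSP17.6A. HSP17.4 and HSP18.2 had values of -0.26 and -0.16 that did not pass the test.

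**Figure D3:**
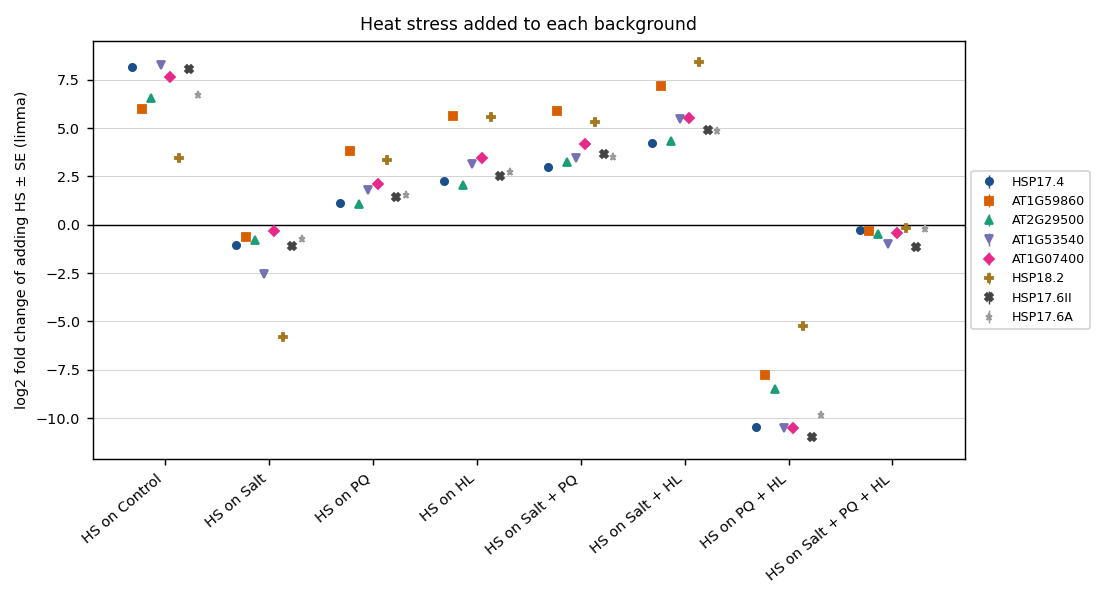
Log2 fold change of each member when HS is added to the background named on the x axis (y axis, ± SE from limma), with a symbol and colour for each member. Values are above 0 on PQ, HL, Salt + HL and Salt + PQ and on the Control, below 0 on Salt, PQ + HL and Salt + PQ + HL, and HSP18.2 stands at 8.41 on Salt + HL and at 3.46 on the Control.

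Whether the heat effect differed between backgrounds was tested as an interaction, the effect of HS on a background minus its effect on the Control. On Salt, PQ + HL and Salt + PQ + HL the difference was negative for all 8 members. Genes with a negative difference were 38.3%, 39.8% and 31.4% of all genes tested on these backgrounds. On PQ it was negative for 7, between -7.04 for HSP17.4 and -2.17 for AT1G59860, where 34.7% of all genes tested were called lower, and HSP18.2 had -0.14 ± 0.18 (SE, adjusted p = 0.501), which did not pass, but passed at -0.41 when scaled to the same total (limma, adjusted p = 0.0351). The effect of HS starts from near-silent genes on the Control and from induced genes on Salt, PQ and PQ + HL, while on Salt + PQ + HL it starts near the Control level, and the differences are between ratios and not between amounts of transcript.

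On the other 3 backgrounds the direction was not the same for all members. On HL all 8 members passed the test, 7 with negative differences and HSP18.2 with 2.09 ± 0.18 (SE), where 39.1% of all genes tested were called lower and 35.5% higher. The negative difference of AT1G59860 on HL lost its call with a pseudocount of 10 (-0.088, limma adjusted p = 0.405), without Control replicate 2 (-0.20) and without replicate 1 of every treatment (-0.27). On Salt + PQ, 6 were negative and HSP18.2 had 1.85 ± 0.18, where 38.7% were called lower and 37.1% higher, while AT1G59860 had -0.10 ± 0.11 and did not pass (limma, adjusted p = 0.406). It passed when scaled to the same total (-0.60, adjusted p = 5.66e-06) and without Control replicate 1 (-0.25, adjusted p = 0.0118). On Salt + HL, 6 were negative, and both HSP18.2 at 4.95 ± 0.18 and AT1G59860 at 1.22 ± 0.11 were positive, where 39.5% were called lower and 39% higher. The difference between genes in these effects was not tested.

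Of the single stresses, HS was the one with the lowest level of each member. All 8 were higher in each of Salt, PQ and HL than in HS, with no overlap of libraries, where 32.9%, 36.3% and 34.8% of all genes tested were called higher in that order. HSP17.6A, for example, had 168259, 153114 and 160527 normalised counts in PQ, 93455, 94199 and 92338 in HL and 83096, 78869.8 and 79894 in Salt, against 17334, 17613 and 16807 in HS. The log2 fold changes over HS were 3.22 ± 0.07 in PQ, 2.44 ± 0.07 in HL and 2.22 ± 0.07 in Salt (SE). Over the family they ran between 2.77 and 6.88 in PQ, 1.78 and 4.96 in HL, and 1.76 and 6.60 in Salt, and HSP18.2 had the largest value in each.

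The other stresses were also set as additions to the 3 that complete the combination of 4. PQ added to Salt + HL + HS was accompanied by a fall of all 8 members, with log2 fold changes of -11.84 for AT2G29500 to -16.01 for AT1G53540, where 42.9% of all genes tested were called lower. HL added to Salt + PQ + HS gave falls of all 8, with -11.75 to -15.85 in the same 2 genes, where 42.4% were called lower. AT2G29500 thus had 263, 284 and 295 normalised counts with all 4 stresses, against 1022850.2, 1029486 and 1050593 in Salt + HL + HS and 969002, 964549 and 978012 in Salt + PQ + HS.

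Salt added to PQ + HL + HS stayed within the bottom tier. It left 2 members called higher and 3 lower, where 26% of all genes tested were called higher and 26.6% lower. AT1G07400 rose by 0.47 ± 0.07 (SE), with 74.1, 75.8 and 90.4 normalised counts with all 4 stresses, against 56.4, 67.5 and 49.9 in PQ + HL + HS. AT1G59860 was called at 0.22, and AT1G53540, HSP17.6II and AT2G29500 at -0.85, -0.67 and -0.44. The libraries of AT1G59860, AT1G53540 and HSP17.6II overlapped between these groups. With only these groups in the fit, the calls of AT1G59860 and HSP17.6II were lost, and 3 were called in place of 5. AT1G59860 also lost its call by edgeR (adjusted p = 0.216), by DESeq2 (adjusted p = 0.233) and without replicate 1 or 3 of every treatment.

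Divided by transcript length, the members can be compared with each other within a group. Their make-up differed between the tiers, given here as a share of the summed normalised counts per kilobase. AT2G29500 made up 12.5 to 14.7% in the top tier, 20.9 to 30.6% in the middle tier, and 50.3% in PQ + HL + HS, 43.6% under Salt + PQ + HL and 42.8% with all 4 stresses, against 41.9% in the Control. HSP18.2 made up 13.6 to 16.1% in the top tier and 0.367% in Salt + HS, 0.484% in PQ + HL and 0.573% in HS, but 8.69% in Salt, against 6.74% in the Control. AT1G59860 made up 6.29 to 8.53% in the top tier and 1.46 to 2.75% in the middle tier, against 5.67% in the Control.

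AT1G53540 was the leading member per kilobase in Salt (28.1%), Salt + PQ (27.1%), PQ (23.9%, where its libraries at 22.8 to 25.0% overlapped with those of AT2G29500 at 22.9 to 24.1%) and the 4 groups of the top tier (21.5 to 23.3%), against 5.80% in the Control. AT2G29500 led in the other groups. The class II genes together made up 32.6% ± 0.79 in PQ + HL, the largest share, 20.4 to 23.0% in the top tier and 17.2% ± 1.1 with all 4 stresses, the smallest share, against 25.2% ± 2.7 in the Control (SD, n = 3 each). Class I therefore supplied most of the family's transcripts in every group.

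**Figure D4:**
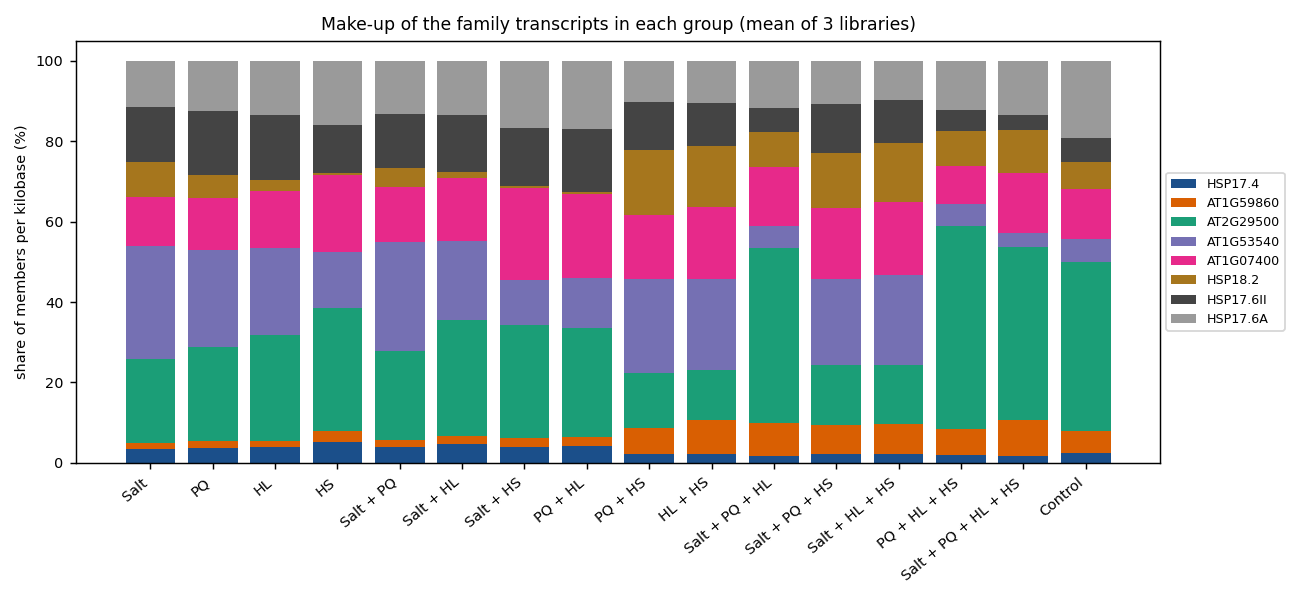
Stacked bars of each member's share (%) of the summed normalised counts per kilobase of transcript, as the mean of 3 libraries, for the 15 treatments and the Control at the right. HSP18.2 is nearly absent in HS, Salt + HS and PQ + HL (0.367 to 0.573%) and makes up 13.6 to 16.1% in the 4 groups of the top tier.

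Likeness among the members was described as Pearson's r of the group means of log2(normalised count + 1) over the 16 groups. These groups share stresses and a common scaling, so the points are not independent. It ran between 0.906 for HSP17.4 with HSP18.2 and 0.9994 for AT2G29500 with HSP17.6II, genes of different classes. HSP17.6II and HSP17.6A had 0.9987, and AT1G59860 and AT1G07400, the closest pair of class I in coding sequence, had 0.9782. HSP18.2 had the lowest value with each of the other members but AT1G59860, at 0.906 to 0.938. The 5 other genes most like the mean of the members were HSP23.6-MITO (r = 0.9974), a mitochondrial small heat shock protein, HSA32 (0.9967), a heat-stress-associated protein, Hop3 (0.9964), annotated as stress-inducible, AT5G48570 (0.9963), also known as ROF2, an FKBP-type prolyl isomerase, and AT5G25450 (0.9962), annotated as a cytochrome subunit.

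Among the factors that act on these genes, HSFA2 followed the members most closely (r = 0.992 over the 16 groups) and HSP101, the partner disaggregase, had 0.968. HSFA2 had 424234, 414576 and 420142 normalised counts in HL + HS and 7969, 7779 and 7434 in HS, against 90.3, 112 and 112 in the Control. With all 4 stresses it had 67.5, 59.6 and 102, a log2 fold change of -0.48 against the Control (limma, adjusted p = 1.81e-05), although 1 library lay within the Control range. HSP101 had 1141, 1046 and 1227 with all 4 stresses, against 1055, 1133 and 1106 in the Control, and its change of 0.05 did not pass the test.

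The HSFA1 genes, whose products are held inactive by chaperones in unstressed cells, had smaller changes. HSFA1D (r = 0.888) rose in the same 12 treatments, by 0.36 in HS and by 1.52 to 1.70 in the top tier. HSFA1E (r = 0.610) rose by 1.45 to 1.91 in the top tier, by 0.47 in PQ and by 0.30 in HL. It fell by 0.61 in HS, with 321, 302 and 282 normalised counts in HS, against 467, 438 and 482 in the Control. It was also called lower in Salt + HL (-0.42), PQ + HL (-0.41) and Salt + HS (-0.35). HSFA1A (r = 0.456) and HSFA1B (r = 0.109) stayed between -0.15 and 0.30 on the log2 scale in all 15 comparisons.

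**Figure D5:**
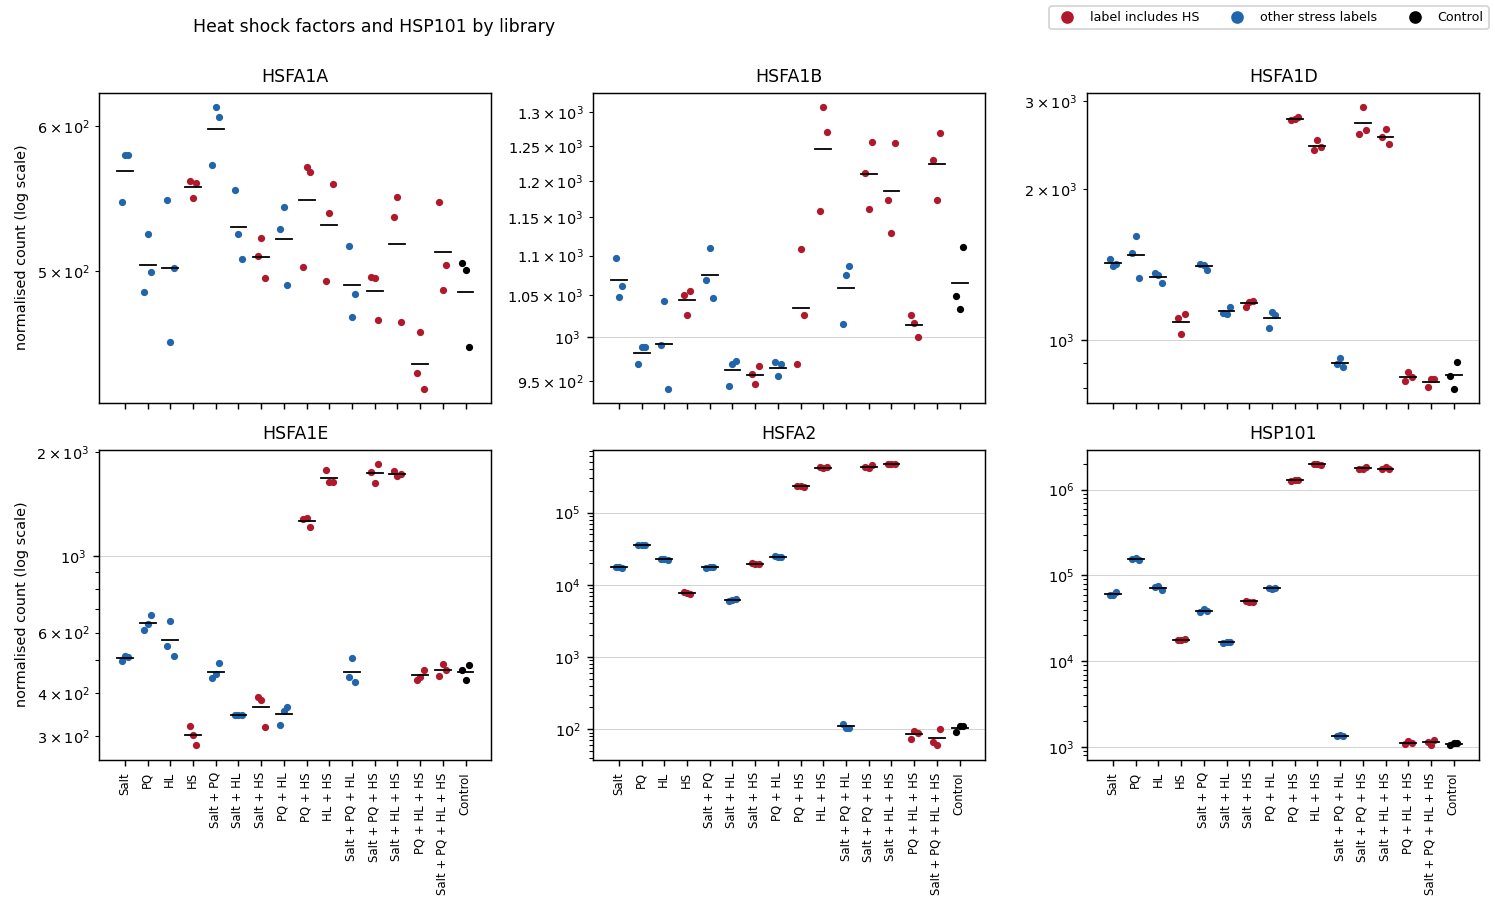
Normalised counts of HSFA1A, HSFA1B, HSFA1D, HSFA1E, HSFA2 and HSP101 on log axes that differ between panels, with a point for each library and a line at the group mean, coloured as for the members. HSFA2 and HSP101 show the same 3 tiers as the members, and HSFA1A and HSFA1B do not.

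The wider heat response, a list of 24 factors and partner chaperones that includes these 6, followed the same split. In the middle and top tiers 21 to 23 of the 24 were called higher than in the Control, where 35.6 to 42.9% of all genes tested were called higher. The median log2 fold change was 2.43 in HS and 7.37 in HL + HS. In Salt + PQ + HL 13 rose and 3 fell, in PQ + HL + HS 5 rose and 3 fell, and with all 4 stresses 6 rose and 9 fell, with medians of 0.12, 0.00052 and 9.6e-05, where 40.5%, 19.7% and 46.9% of all genes tested were called in either direction. Genes that fell with all 4 stresses included HSP90-1, HSC70-1 and HSP70-4, which are cytosolic chaperones.

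Small heat shock proteins of organelles were listed apart. All 6, for the chloroplast, mitochondrion, endoplasmic reticulum and peroxisome, rose in the middle and top tiers, where 35.6 to 42.9% of all genes tested were called higher. Their median log2 fold change was 5.43 in HS and 12.80 in HL + HS. In the bottom tier none rose, and 5 fell under Salt + PQ + HL, 2 with PQ + HL + HS and 5 with all 4 stresses, where the medians were -0.62, -0.19 and -0.89 and the shares of all genes called in either direction were those given for the wider list. The 5 other cytosolic or related genes were mixed. AT1G54050 had the largest rise of the 5 in each of the 12 treatments, by 4.07 in HS and 10.13 in HL + HS. AT4G21870 fell in 7 of them, by 0.79 in Salt + PQ + HS, and 34.4 to 43% of all genes tested were called lower in those 7. It rose in HS and in Salt + HL, where 37.2% and 35.8% were called higher.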

How the data were processed

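RNA of wild-type Arabidopsis seedlings was measured in 48 libraries of 16 groups, grouped by the treatment named in each sample's own labels. By the paper and the submitters' processing notes, the authors used FastQC 0.11.7 for read quality, STAR 2.4.0.1 for alignment of single-end reads to TAIR build 10, and DESeq2 1.20.0 to normalise the counts per gene. The deposited signal values are counts divided by 1 size factor per library (0.594 to 1.34), without scaling to length or to a total. All values (100%, tolerance 0.001) were whole multiples of a step per library, so the reads were recovered. With 3 libraries a group, the spread between replicates exceeded counting error, and means carry their SD.

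The 8 members, the lists, the rule for named genes (all members, 6 named regulators, and the 5 genes most like the members) and the tests were chosen with earlier results of these data known. The design assumed normalised values, as found. The 21536 genes of 32833 averaging 10 or more normalised counts were tested with limma 3.58.1 (R 4.3.3, trend in the prior variance) on log2(value + 1), with a term for each of 16 groups and no replicate block, and p-values were adjusted by Benjamini-Hochberg within each of 35 comparisons. The procedure was first tested on simulated data, with few changed genes in a single group and the same dispersion for every gene. That setting is simpler than these data. It does not check the scaling between groups or the spread shared by all groups. The alternatives were pseudocounts of 0.1 and 10, no filter, only the groups compared, scaling to the same total, a replicate block, each replicate left out, edgeR 4.0.16 (quasi-likelihood) and DESeq2 1.42.0 on the recovered reads, and, added after seeing the data, the window before the start codon. Positions and sequences are from RefSeq's TAIR10.1, in which all 8 members and 32548 of the 32833 identifiers were found. Biopython 1.88 aligned coding sequences. The treatments that add acidity or cadmium are not analysed here.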

Additional observations from a re-analysis of the deposited data

Results flagged for a closer look

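The effect of HS differed between backgrounds for most members, by the interaction in limma (adjusted p under 0.05, 3 libraries per group). It differed from the effect of HS alone for 8 members on Salt, 7 on PQ, 8 on HL, 7 on Salt + PQ, 8 on Salt + HL, 8 on PQ + HL and 8 on Salt + PQ + HL, where 73.5%, 68.2%, 74.6%, 75.7%, 78.5%, 78.2% and 58.9% of all genes tested differed on these backgrounds in the same order. HSP18.2 on PQ and AT1G59860 on Salt + PQ are the exceptions, and both passed when each library was scaled to the same total. AT1G59860 on HL no longer passed with a pseudocount of 10 or without Control replicate 2. The differences on PQ + HL were the largest in size for 7 of the 8 members, from -19.02 for HSP17.6II to -13.72 for AT1G59860, and rest on the libraries labelled PQ + HL + HS, whose members lay near the Control level. HSP18.2 had -8.70 on PQ + HL and -9.26 on Salt. No explanation was tested.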

How the results depend on the processing

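Of 3608 values of single members over all alternatives, 3541 kept their direction and side of the threshold, 39 no longer passed, 15 newly passed and 13 changed sign. Members called in PQ + HL + HS against the Control numbered 5, with 2 by edgeR, 2 with only the groups compared and 3 to 6 without single replicates. In Salt + PQ + HL they numbered 3, with 1 with only the groups compared and 3 to 5 without single replicates. For Salt added to PQ + HL + HS they numbered 5, and 3 with only the groups compared. The cause was not tested. Of the sequence counts, members with a pair of units numbered 3 before the annotated start and 8 before the start codon. Signs changed only in log2 values that had not passed the test, all in the bottom tier or in interactions. With a pseudocount of 10, the heat effect on Salt + PQ minus heat alone was 0.14 for AT1G59860 and the heat effect on PQ minus heat alone was 0.040 for HSP18.2. Without single replicates, AT1G59860 ran between -0.25 and 0.023 for HS on Salt + PQ minus heat alone, between -0.27 and 0.0051 in PQ + HL + HS, and between -0.051 and 0.23 with all 4 stresses. HSP18.2 ran between -0.27 and 0.23 in PQ + HL + HS, between -0.072 and 0.26 with all 4 stresses, and between -0.22 and 0.29 for Salt added to PQ + HL + HS. In that comparison HSP17.4 ran between -0.60 and 0.064 and HSP17.6A between -0.18 and 0.066, and HSP17.6II ran between -0.34 and 0.020 in Salt + PQ + HL. Scaling to the same total moved the median log2 fold change of all genes against the Control to -0.87 in HL + HS and -0.66 in PQ + HS, and genes called higher to 15.5% and 20.8% of those called, against 49.73% and 50.02% as reported. The share of higher among called genes moved by over 10 percentage points in 29 of the 35 comparisons. No called member changed sign. Scaling newly passed HSP18.2 on PQ and AT1G59860 on Salt + PQ, while AT2G29500 in PQ + HL + HS no longer passed (-0.13, limma adjusted p = 0.0579). The replicate numbers did not pair libraries (mean correlation of same-numbered residuals -0.00029), and with a replicate block all 35 counts of members called were the same and 0 calls changed. Depth limits HSP17.4 in the bottom tier, at 5.11 to 13.4 normalised counts per library.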
